A study of Mus musculus with 8 samples.

Results

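The pre-B-cell receptor and the signalling proteins closest to it were followed as 10 genes in mouse pre-B leukaemia cells given a synthetic microRNA. They are the surrogate light chain genes Igll1, Vpreb1 and Vpreb2 with the related Vpreb3, the receptor's signalling chains Cd79a and Cd79b, and the adaptor and kinase genes Blnk, Syk, Btk and Blk. A probe was taken as a member if the array annotation named 1 of these genes or carried its RefSeq identifier under an older symbol, as for Syk, which is listed as Sykb. This gave 11 of 55681 probes, with 2 for Btk and 1 for each other gene, and all 10 genes were among the 18778 genes tested. Gene expression was measured on 8 one-colour arrays in 4 groups of 2 arrays each, from 2 independent experiments. The first group was the line 70Z/3, a leukaemic pre-B lymphoblast line, with the control duplex miR-Neg, and the second was 70Z/3 with a pre-miR-125b duplex. The other two groups were 18-81, a pre-B line made by transformation with Abelson murine leukaemia virus, with miR-Neg and with pre-miR-125b. All groups received a synthetic duplex at 10 nM with a lipid reagent, had their medium changed after 8 h and gave RNA at 48 h, and no untransfected cells were analysed here. Each line is a single line, so a difference between the lines describes this pair of lines only. The labels do not say whether the samples of a group came from separate cultures beyond the independent experiments.

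The pre-B-cell receptor is formed when a newly rearranged immunoglobulin heavy chain pairs with the surrogate light chain, which consists of the lambda5 protein (Igll1) and a VpreB protein (Vpreb1 or Vpreb2). The heavy chain is anchored to the heterodimer of Ig-alpha (Cd79a) and Ig-beta (Cd79b), whose tails are phosphorylated by Src-family kinases such as Blk and then bind Syk, and Syk acts through the adaptor Blnk to engage Btk. The receptor is a checkpoint in B-cell development, and surrogate light chain genes are normally silenced as the cells move on to make conventional light chains.

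The microRNA that was delivered is shown first because its seed defines which transcripts it can pair with. Its mature form (mmu-miR-125b-5p, 22 bases, RefSeq, build GRCm38.p6) is encoded at chr9:41581940-41581961 and at chr16:77646279-77646300, both on the plus strand. The capitals mark the seed, bases 2 to 8.
mmu-miR-125b-5p: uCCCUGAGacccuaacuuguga
The array does not measure this mature microRNA, and target sites in the members were not searched, since no transcript sequences were used here.

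The 250 bases before the annotated start of Igll1, Vpreb1 and Vpreb2 are shown because these 3 genes differed most between the lines. They come from RefSeq (GRCm38.p6) and lie at chr16:16863986-16864235 on the minus strand, chr16:16869256-16869505 on the minus strand and chr16:17980315-17980564 on the plus strand. The capitals mark matches on either strand to the palindrome CCCNNGGG, the core bound by early B-cell factors, or to the E-box CAGNTG, bound by E proteins.
Igll1: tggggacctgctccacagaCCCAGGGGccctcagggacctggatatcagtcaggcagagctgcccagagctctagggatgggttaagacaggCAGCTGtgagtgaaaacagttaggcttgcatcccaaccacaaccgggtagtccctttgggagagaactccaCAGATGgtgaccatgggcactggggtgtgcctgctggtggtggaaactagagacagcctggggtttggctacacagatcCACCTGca
Vpreb1: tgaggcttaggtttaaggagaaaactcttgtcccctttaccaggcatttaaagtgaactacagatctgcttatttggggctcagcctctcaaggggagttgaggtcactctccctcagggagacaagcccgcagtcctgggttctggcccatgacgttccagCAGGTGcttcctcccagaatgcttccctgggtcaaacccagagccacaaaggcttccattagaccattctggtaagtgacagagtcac
Vpreb2: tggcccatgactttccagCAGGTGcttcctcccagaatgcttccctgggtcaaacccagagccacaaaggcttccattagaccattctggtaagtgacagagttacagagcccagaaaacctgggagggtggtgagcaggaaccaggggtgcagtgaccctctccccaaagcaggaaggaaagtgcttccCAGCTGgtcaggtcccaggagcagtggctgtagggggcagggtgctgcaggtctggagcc
The Vpreb1 entry from position -106 to 50 around its start matched the Vpreb2 entry from -250 to -95 at 153 of 156 bases (98.1%), so the paralogs share a near-identical stretch at different distances from their annotated starts. The Igll1 entry held the only CCCNNGGG match among the 8 members with an entry, at -231, and 13.7% of all 32851 promoter entries of 300 bases hold one. The E-box was in 7 of these 8 members and in 51.4% of all entries. The octamer ATGCAAAT, bound by Oct factors, was in Vpreb3 and Blnk and in 1.74% of all entries. A match is a description of these letters and not a binding site.

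Members were well above background on all 8 arrays, with no saturated spot and no spot flagged as an outlier. On each array 38.9 to 45.8% of all probes reached that level. Replicate 2 of the 70Z/3 miR-Neg group was the dimmest array, with a 75th percentile of intensity of 337.7 against 504 to 725.1 on the others. Of 12 B-cell precursor markers, 7 to 9 were well above background on both arrays of a group, among them Pax5, Ebf1, Dntt and Il7r in every group, while the recombinase genes Rag1 and Rag2 and the receptor gene Kit were not above it on any array. The mature B-cell markers Ms4a1 and Fcer2a and the red-cell marker Hba-a1 were not above background either. Other markers of these types were, with Cr2, Cd22, Cd37 and the red-cell marker Klf1 above it on both arrays of every group. Of 8 myeloid markers 4 to 6, and of 5 plasma-cell markers 3 to 4, were above background on both arrays of a group. Of 10 T-cell markers, 5 to 8 were above background in a group, and their summed linear level relative to the 75th percentile was 45.1 and 136 in 70Z/3 with miR-Neg, 36.4 and 39.7 in 70Z/3 with miR-125b, 16.2 and 22.3 in 18-81 with miR-Neg and 16.6 and 25.4 in 18-81 with miR-125b. The highest of these sums was that of the dim array, where the kinase gene Lck stood at 6.78 against 4.69 to 5.04 on the other 70Z/3 arrays. The markers did not move one way between the lines, since 2 of the 8 that entered the test passed as lower in 18-81 and 3 as higher. Lck was at -2.29 ± 0.46, while Cd2 was at least 25.7-fold and Cd3g at least 7.12-fold higher in 18-81, with no 70Z/3 array above background. Such a bound sets the mean of the brighter line against a floor on each dim array, which is the dimmest signal still above background or the signal of the probe itself if that is larger. Cd8a and Thy1 were not above background in any group. Values below are log2 intensities relative to each array's 75th percentile, a difference is in log2 units ± standard error of the limma model, and levels of different probes are not compared.

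The surrogate light chain genes were the members that set the lines apart most clearly, and they were lower in 18-81. Igll1, which encodes lambda5, was 7.13-fold lower, Vpreb1 was 3.33-fold lower and Vpreb2 was 2.98-fold lower, averaged over both duplexes. Cd79b and Blnk were lower by 2.06-fold and 1.70-fold. Of the 10 members, 5 passed the test and all 5 were lower (limma, adjusted p under 0.05), where 31.8% of all genes tested passed and 16.2% were lower. The median difference of the members was -0.87 against 0.02 for all genes, and 9 of 10 were negative against 48.9% of all genes. In bulk samples, fewer cells of a type and less RNA per cell cannot be told apart, and the p-values measure the spread between these samples.

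Igll1 stood at 6.68 and 7.69 in 70Z/3 with miR-Neg, at 6.52 and 6.15 in 70Z/3 with miR-125b, at 4.76 and 3.70 in 18-81 with miR-Neg, and at 3.95 and 3.29 in 18-81 with miR-125b, for replicates 1 and 2 in turn. Every 18-81 array lay below every 70Z/3 array, with a clear gap between the lowest 70Z/3 value and the highest 18-81 value. The difference was -2.83 ± 0.34 (limma, adjusted p = 0.000351), with a 95% interval from -3.63 to -2.04. Its mouse probe lies at chr16:16861104-16861163 in mm9, the build of all probe positions given here.

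Vpreb1 stood at 8.76 and 9.82 in 70Z/3 with miR-Neg, at 8.34 and 8.79 in 70Z/3 with miR-125b, at 7.07 and 7.27 in 18-81 with miR-Neg and at 7.08 and 7.35 in 18-81 with miR-125b. The 4 arrays of 18-81 lay close together and all below the 4 arrays of 70Z/3, which spread more widely. The difference was -1.73 ± 0.28 (limma, adjusted p = 0.00177; probe at chr16:16868559-16868618). Vpreb2 followed the same order, with 6.03, 7.29, 5.88 and 6.19 in 70Z/3 (miR-Neg replicates first) against 4.38, 5.04, 4.58 and 5.09 in 18-81. Its lines did not overlap either, and the difference was -1.57 ± 0.33 (limma, adjusted p = 0.00708; probe at chr16:17981114-17981173). The array annotation lists the Vpreb1 transcript for the Vpreb2 probe as well, so the paralogs cannot be told apart by this probe.

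Vpreb3, a VpreB-related protein that is not part of the receptor at the cell surface and is known to bind immunoglobulin chains inside the cell, was close to equal in the lines. The 70Z/3 arrays gave 8.67, 8.90, 8.31 and 8.88, and the 18-81 arrays gave 8.18, 8.81, 8.26 and 8.94. The ranges overlap almost entirely, the difference was -0.14 ± 0.27 (limma, adjusted p = 0.735), and its 95% interval from -0.76 to 0.47 leaves out falls as large as that of Vpreb1. The Vpreb3 probe lies on another chromosome than the 3 surrogate light chain genes (chr10:75412326-75412385).

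**Figure D1:**
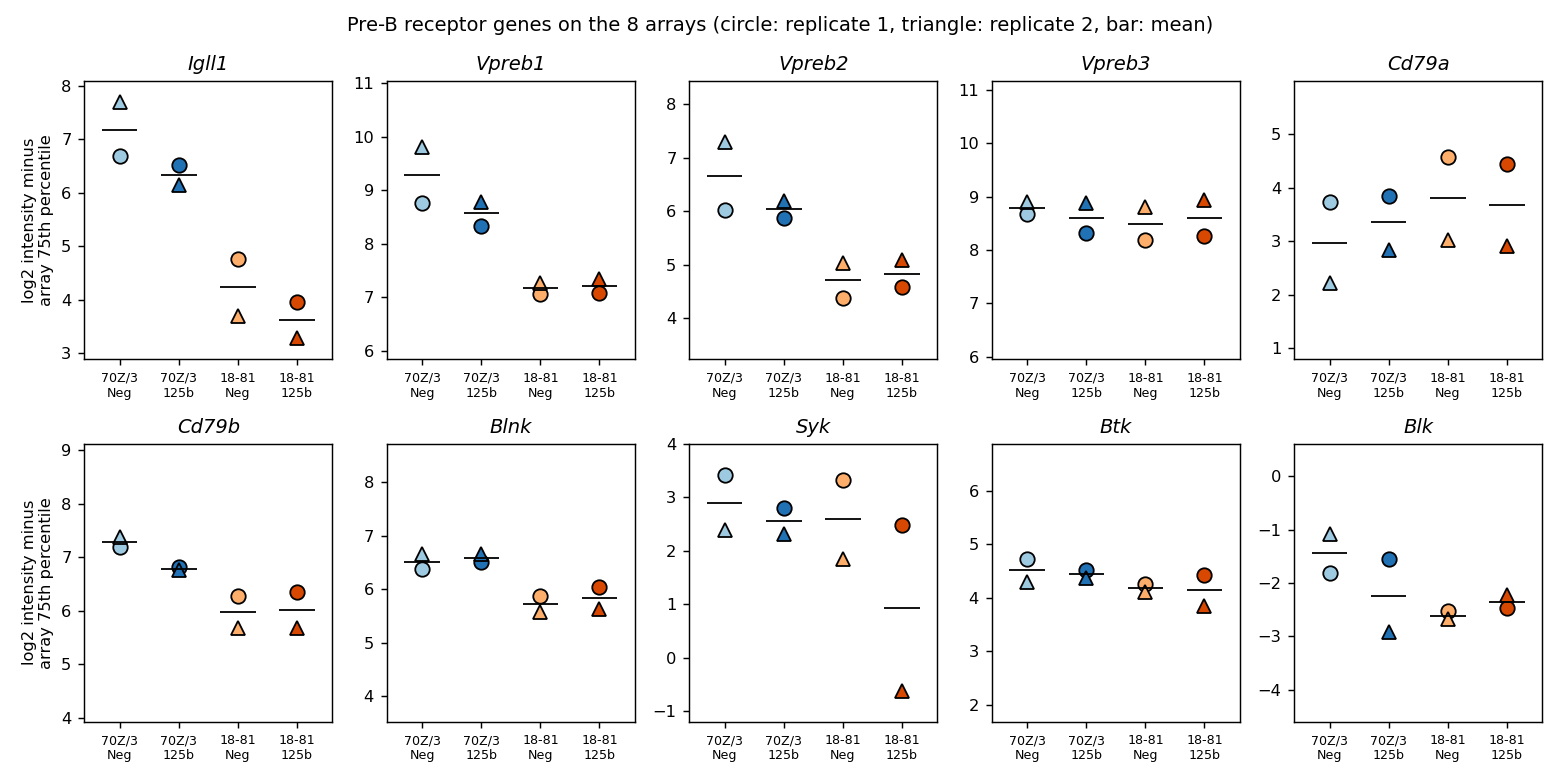
Log2 intensity minus the array's 75th percentile (vertical axis, a span of equal length in every panel) for the 10 members on each of the 8 arrays, by line and duplex; circles are replicate 1, triangles replicate 2 and bars the mean of 2 arrays. Igll1, Vpreb1, Vpreb2, Cd79b and Blnk show all 18-81 arrays below all 70Z/3 arrays, Cd79a shows replicate 2 below replicate 1 in every group, and Syk has 1 low array at -0.62.

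Of the genes for the signalling heterodimer, Cd79b was lower in 18-81 and Cd79a did not pass the test. Cd79b stood at 7.19 and 7.38 in 70Z/3 with miR-Neg, at 6.82 and 6.77 in 70Z/3 with miR-125b, at 6.28 and 5.67 in 18-81 with miR-Neg and at 6.35 and 5.68 in 18-81 with miR-125b. All 18-81 arrays lay below all 70Z/3 arrays, by -1.04 ± 0.24 (limma, adjusted p = 0.0118; probe at chr11:106172780-106172839). This call was lost after quantile normalization (-1.05, limma, adjusted p = 0.0557) and in the authors' deposited series table (-1.06, limma, adjusted p = 0.0534), with a difference of nearly the same size.

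Cd79a stood at 3.73 and 2.21 in 70Z/3 with miR-Neg, at 3.85 and 2.84 in 70Z/3 with miR-125b, at 4.58 and 3.02 in 18-81 with miR-Neg and at 4.45 and 2.91 in 18-81 with miR-125b. The lines overlap, because replicate 2 was low in all 4 groups, yet within each replicate number both 18-81 arrays lay above both 70Z/3 arrays. The difference was 0.58 ± 0.54 (limma, adjusted p = 0.471). With the replicate number as a block it passed, at the same size (limma, adjusted p = 0.0199), in a fit that calls 48.1% of all genes and 24.4% as higher, and so did it with a block within each line (limma, adjusted p = 0.0247). A second probe, listed for a predicted gene similar to Cd79a and sharing a cDNA record with it, lies on another chromosome (chr12:53180558-53180617). It differed by 0.28 ± 0.28 (limma, adjusted p = 0.499). Its 18-81 arrays lay above its 70Z/3 arrays in replicate 1 and not in replicate 2, at 7.04 and 6.98 against 6.68 and 7.08. Within arrays, the Cd79b to Cd79a ratio was 3.08-fold lower in 18-81, with no overlap between the lines (log2 ratios of 1.70 to 2.77 against 2.97 to 5.17). The other ratios computed were Igll1 to Vpreb3 (6.46-fold lower), Igll1 to Vpreb1 (2.15-fold lower) and Vpreb1 to Vpreb2 (1.12-fold lower). All 4 were chosen after the values were seen and are a description. Of these ratios, that of Vpreb1 to Vpreb2 differed least between the lines. The Vpreb2 probe is also listed for the Vpreb1 transcript, so this ratio does not compare the paralogs.

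Among the adaptor and kinase genes, Blnk was the one that passed. Blnk, the adaptor that links Syk to Btk, gave 6.39, 6.66, 6.51 and 6.67 on the 70Z/3 arrays and 5.88, 5.58, 6.04 and 5.64 on the 18-81 arrays. The lines did not overlap and the difference was -0.77 ± 0.20 (limma, adjusted p = 0.0222; probe at chr19:41003426-41003485). The call was lost without any 1 of 5 arrays (70Z/3 with miR-125b replicates 1 and 2, 70Z/3 with miR-Neg replicate 2, 18-81 with miR-Neg replicate 2, and 18-81 with miR-125b replicate 2), where the difference was -0.81 to -0.67 with limma adjusted p from 0.0539 to 0.0911. It was also lost without the filter on dim genes (0.0743), after quantile normalization (0.0565) and in the authors' deposited series table (0.0504).

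Syk, the kinase that binds the phosphorylated Cd79a and Cd79b tails, gave 3.42, 2.38, 2.79 and 2.31 on the 70Z/3 arrays, 3.33 and 1.85 in 18-81 with miR-Neg and 2.48 and -0.62 in 18-81 with miR-125b. A single array was far below the others, and the lines overlap. The line difference was -0.97 ± 0.67 (limma, adjusted p = 0.326), and -0.19 (limma, adjusted p = 0.797) without that low array, replicate 2 of 18-81 with miR-125b. A block within each line gave a limma adjusted p = 0.0463 at the same size, in a fit that calls 47.2% of all genes and 23.3% as lower, and leaving out replicate 1 of 18-81 with miR-125b gave -1.74 (limma, adjusted p = 0.0203). A further probe, outside the membership rule and annotated to another Syk transcript, lies at chr13:52738924-52738983 against chr13:52744088-52744147 for the Syk probe. It was above background on 6 of 8 arrays and higher in 18-81, at -1.63, -1.42, -1.67 and -1.48 there against -4.04, -3.09, -3.65 and -3.31 in 70Z/3 (1.97 ± 0.26, limma, adjusted p = 0.000549). The sign was opposite to that of the Syk probe, and whether the further probe reads Syk RNA was not checked by aligning its sequence. On the array where the Syk probe was low, the further probe stood level with the other 18-81 arrays.

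Btk, the kinase activated on the Blnk scaffold, ranged from 4.30 to 4.72 in 70Z/3 and from 3.84 to 4.43 in 18-81, with overlap. The difference was -0.31 ± 0.22 on its brighter probe (limma, adjusted p = 0.335; chrX:131076995-131077054) and -0.28 ± 0.39 on its dimmer probe (limma over probes, adjusted p = 0.639; chrX:131083955-131084014). Blk, a Src-family kinase of B cells, ranged from -2.91 to -1.08 in 70Z/3 and from -2.68 to -2.23 in 18-81. The 70Z/3 arrays enclosed the 18-81 arrays, and the difference was -0.64 ± 0.33 (limma, adjusted p = 0.188). Without replicate 2 of 70Z/3 with miR-125b it was -0.98 (limma, adjusted p = 0.0453). Its processed intensities before scaling were 67 to 238. The Blk probe spans chr14:63997333-63998470 and the Cd79a probe chr7:25684357-25684614, longer than the single blocks of the other probes.

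**Figure D2:**
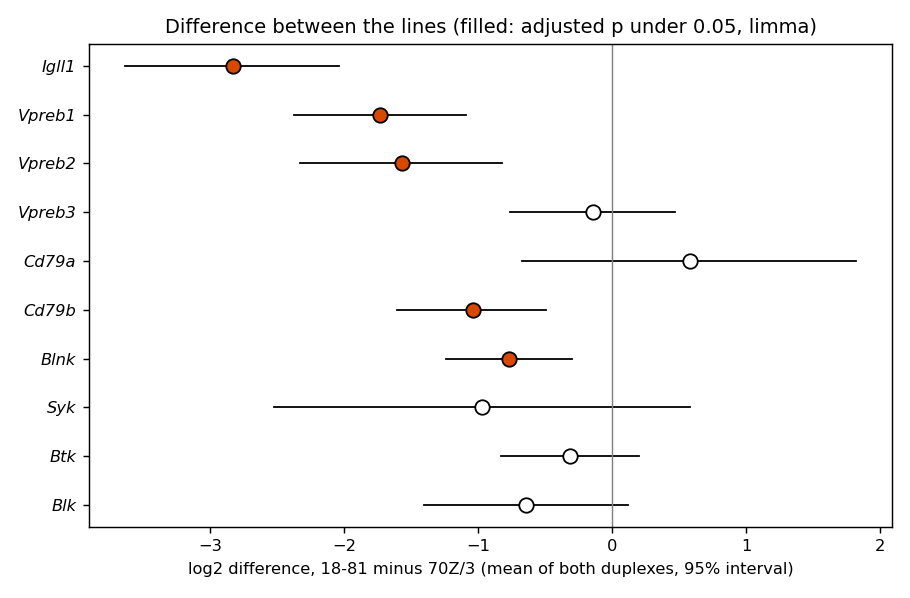
Log2 difference of 18-81 minus 70Z/3, averaged over both duplexes (horizontal axis), with the 95% interval of the limma fit for each member; filled points passed an adjusted p under 0.05. Igll1 lies farthest below 0 at -2.83, followed by Vpreb1 and Vpreb2, while the intervals of Vpreb3, Cd79a, Syk, Btk and Blk include 0.

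The call of a line difference held under each duplex for Igll1 and Vpreb1. Vpreb2, Cd79b and Blnk kept their direction but lost the call under 1 or both duplexes. With miR-Neg alone, Igll1 differed by -2.96 ± 0.48 (limma, adjusted p = 0.00301), Vpreb1 by -2.11 ± 0.39 (0.0057), Vpreb2 by -1.95 ± 0.46 (0.0192) and Cd79b by -1.31 ± 0.34 (0.0283). With miR-125b alone, Igll1 differed by -2.71 ± 0.48 (limma, adjusted p = 0.00452) and Vpreb1 by -1.35 ± 0.39 (0.0439). Vpreb2 was then at -1.20 ± 0.46 (limma, adjusted p = 0.113) and Cd79b at -0.78 ± 0.34 (0.16). Blnk missed the threshold under both duplexes, at -0.79 ± 0.29 (limma, adjusted p = 0.0964) and -0.75 ± 0.29 (0.115). These fits called 21.6 and 21.2% of all genes. The 5 members whose lines did not overlap were all lower in 18-81, where 18.2% of all genes had every 18-81 array below every 70Z/3 array.

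The highest Igll1, Vpreb1, Vpreb2 and Cd79b values came from the dim array, replicate 2 of 70Z/3 with miR-Neg, which also had the highest summed T-cell markers. Without it, the line difference of Igll1 was -2.58 (limma, adjusted p = 0.00157), that of Vpreb1 was -1.47 (0.00302), that of Vpreb2 was -1.26 (0.0137) and that of Cd79b still passed (0.0345), so these 4 calls did not need that array. Blnk was then at -0.70 (limma, adjusted p = 0.0539).

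Igll1 and Vpreb1 are neighbours on chromosome 16, and Vpreb2 lies farther along it. The measured genes on either side of the first pair, Rpl31-ps12 and the topoisomerase gene Top3b, differed by -0.34 ± 0.27 (limma, adjusted p = 0.389) and -0.31 ± 0.24 (0.386). Of the genes next to Vpreb2, the citrate carrier gene Slc25a1 was at 0.59 ± 0.21 (limma, adjusted p = 0.0701). The other, Dgcr6, was at least 432-fold higher in 18-81, with no array of 70Z/3 above background. Among all 15 measured genes within 6 protein-coding genes of Igll1, Vpreb1 or Vpreb2 on either side, 5 passed, where 31.8% of all genes did. Of the 5, 1 was lower and 4 higher in 18-81, beside 16.2% lower and 15.6% higher over all genes. Among the 5, Dgcr6, Ypel1 and Prodh entered the test through 1 line alone. No array of their dimmer line was above background, so their calls rest on signal below background there. The lower gene was Ypel1, which lies between Vpreb1 and Vpreb2 (probe at chr16:17078030-17078089). It was at least 3.35-fold lower, with no array of 18-81 above background.

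After miR-125b, no member passed the test in either line. In 70Z/3, 0 of the 10 members and 0 of all 18778 genes passed (limma), and at an unadjusted p under 0.05 there were 0 members and 1104 genes (5.88%). In 18-81, 0 members and 0 genes passed (limma), with 0 members and 228 genes (1.21%) at an unadjusted p under 0.05. The members' median was -0.42 in 70Z/3 against -0.13 for all genes, with 8 of 10 negative against 61.1% of all genes, and 0.04 in 18-81 against 0.03. The 70Z/3 median and the share of negative members there depended on the scaling. After quantile normalization Btk and Vpreb3 turned positive, at 0.15 each, and Cd79b moved from -0.49 to -0.14. In the authors' deposited series table Btk was at 0.16, Vpreb3 at 0.24 and Cd79b at -0.1. Blnk and Cd79a stayed positive in these alternatives, and Blk stayed negative, at -0.83 in each.

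In 70Z/3 the surrogate light chain genes had the lowest values after miR-125b, together with Blk. Igll1 was at -0.85 ± 0.48 (limma, adjusted p = 0.773; replicate pairs -0.16 and -1.54). Vpreb1 was at -0.72 ± 0.39 (pairs -0.41 and -1.03), Vpreb2 at -0.62 ± 0.46 (pairs -0.15 and -1.10) and Blk at -0.79 ± 0.47 (pairs 0.25 and -1.84), with the same limma adjusted p. All 4 were lower in the second pair, whose control is the dim array, than in the first. Without that array they were -0.34 for Igll1, -0.19 for Vpreb1, 0.01 for Vpreb2 and -0.43 for Blk. Those values set replicate 1 of miR-Neg against both miR-125b replicates, while pair 1 alone gave 0.25 for Blk. With all arrays kept, the T-cell marker Lck was at -1.13 ± 0.65 after miR-125b in 70Z/3. All 8 measured T-cell markers had negative values (median -0.85), though Cd2, Cd3g and Cd8b1 were above background on no 70Z/3 array. Their part in the members' values was not tested.

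Cd79b was lower in both pairs of 70Z/3, at -0.37 and -0.62 in the pairs and -0.49 ± 0.34 on average (limma, adjusted p = 0.773), and at -0.40 without the dim array. Igll1 and Cd79b were the 2 members whose miR-125b arrays both lay below the miR-Neg arrays in 70Z/3, where 22.8% of all genes did so. Cd79a was at 0.38 ± 0.76, Syk at -0.35 ± 0.95, Vpreb3 at -0.19 ± 0.38, Btk at -0.07 ± 0.31 and Blnk at 0.07 ± 0.29. The intervals allow changes of some size for Cd79a (-1.38 to 2.14) and Syk (-2.54 to 1.85) and narrower ones for Blnk (-0.60 to 0.74).

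In 18-81 most members stood close to no change in both pairs. Vpreb1 was at 0.01 and 0.08, Vpreb2 at 0.20 and 0.05, Vpreb3 at 0.08 and 0.13, Cd79b at 0.07 and 0.01 and Blnk at 0.16 and 0.06. Cd79a was at -0.13 and -0.11 and Btk at 0.18 and -0.27. Igll1 was at -0.81 and -0.41, or -0.61 ± 0.48 on average, and Syk at -0.85 and -2.46, or -1.66 ± 0.95 (limma, adjusted p = 1 for both). Without the low array the Syk value was -0.11, but that sets replicate 1 of miR-125b against both miR-Neg replicates, and pair 1, which does not hold the low array, gave -0.85. Blk was the 1 member whose miR-125b and miR-Neg arrays did not overlap in 18-81 (pairs 0.08 and 0.45), where 12.9% of all genes did not.

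Over both lines, Igll1 and Syk were lower with miR-125b in all 4 replicate pairs, as were 7.07% of all genes, and Blnk was higher in all 4, as were 4.9%. For 5 members both pairs of one line were opposite in sign to both pairs of the other, as for 24.6% of all genes. The difference of the miR-125b effects between the lines passed for 0 of the 10 members and 0 genes (limma; 0 members and 606 genes, 3.23%, at an unadjusted p under 0.05). It was largest in size for Syk, at -1.31 ± 1.34, and for Blk, at 1.06 ± 0.66 (limma, adjusted p = 0.941 for both).

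**Figure D3:**
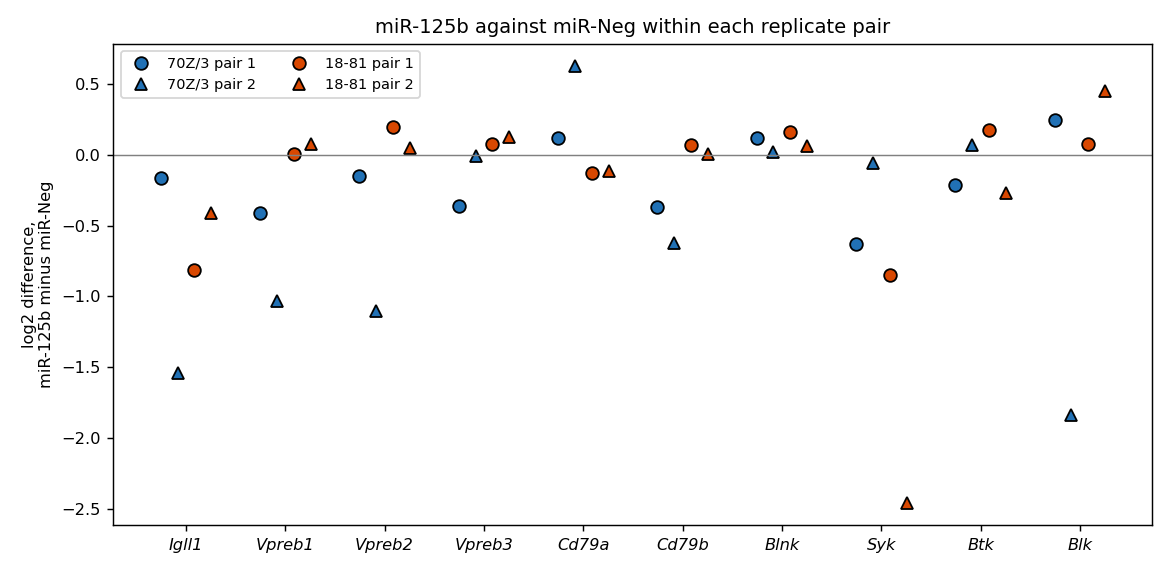
Log2 difference of miR-125b minus miR-Neg (vertical axis) within each of the 4 replicate pairs for the 10 members; blue marks 70Z/3, orange 18-81, circles pair 1 and triangles pair 2. Pair 2 of 70Z/3 gives the lowest values for Igll1, Vpreb1, Vpreb2 and Blk, and pair 2 of 18-81 gives the lowest for Syk at -2.46.

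The members also differed between the 2 experiments, which lie in different rows of the slide, so experiment and slide row cannot be told apart. In a limma fit of the group means plus the replicate number, added after the data were seen, 4 members passed, 2 lower and 2 higher in replicate 2, where 26% of all genes passed, 6.05% lower and 19.9% higher. Cd79a was lower in replicate 2 by -1.40 ± 0.15 (limma, adjusted p = 0.0265), with -1.52, -1.01, -1.56 and -1.54 in the 4 groups. Syk was lower by -1.53 ± 0.41 (limma, adjusted p = 0.0439), with -1.04, -0.48, -1.48 and -3.09. These are differences of single probes. The further probe annotated to a Syk transcript was higher in replicate 2 in all 4 groups. The probe for the predicted gene similar to Cd79a was lower in replicate 2 in all 4, by less than the Cd79a probe in each. Vpreb2 (0.68 ± 0.18, limma, adjusted p = 0.0429) and Vpreb3 (0.53 ± 0.13, 0.0377) were higher, but the median of all genes was 0.21 in this fit. After quantile normalization, which moved that median to 0.04, they were at 0.28 and 0.05 (limma, adjusted p = 0.207 and 0.817), while Cd79a was at -1.63 (0.0317) and Syk at -1.69 (0.0576). For Cd79a the difference between experiments was larger in size than the difference between the lines (0.58).

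In the rest of the pathway, genes passed in both directions, and over the positive signalling genes the share was close to that of all genes. Of 33 measured genes of 34 in a list of other positive signalling genes, 6 were lower and 5 higher in 18-81 (limma, adjusted p under 0.05), where 31.8% of all genes passed, 16.2% lower and 15.6% higher. Lower were Vav3, a guanine nucleotide exchange factor, by at least 56-fold with no 18-81 array above background, and Rasgrp3, which activates Ras, by at least 35.5-fold with 1 of 4 18-81 arrays above background and the others set to the same floor. Pik3ap1, the adaptor BCAP, was at -1.02 ± 0.21, the phosphoinositide 3-kinase subunit Pik3r1 at -0.94 ± 0.21 and the transcription factor Nfatc1 at -0.85 ± 0.20. Higher were Rasgrp1, also a Ras activator, by at least 13.2-fold with no 70Z/3 array above background, the scaffold Bank1 at 4.50 ± 0.32 and the phosphatase Ptprc (CD45) at 1.40 ± 0.24. Rasgrp3 and Rasgrp1 thus differed in opposite directions. Plcg2, the phospholipase that Btk phosphorylates, was at 0.08 ± 0.19 and the Src-family kinase Lyn at 0.13 ± 0.23 (limma, adjusted p = 0.807 and 0.718), named after their values were seen.

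Of 13 measured genes of 15 listed as inhibitory, 6 were lower and 3 higher in 18-81 (limma, adjusted p under 0.05). Over all genes, 16.2% were lower and 15.6% higher. The inhibitory surface protein Cd72 was at -3.96 ± 0.34 and Cd5 at -2.41 ± 0.31, the docking proteins Dok1 and Dok3 at -1.85 ± 0.20 and -1.56 ± 0.27, and the lipid phosphatase Inpp5d (SHIP1) at -1.82 ± 0.20. The inhibitory Fc receptor Fcgr2b was higher at 1.82 ± 0.23, the adaptor Lat2 at 1.37 ± 0.22 and the phosphatase Ptpn6 (SHP-1) at 1.25 ± 0.20. Median differences were -0.18 in this list and -0.06 in the positive list, against 0.02 for all genes, and called genes lay on both sides in both lists.

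All 16 transcription factors of the list were measured, with 5 lower and 4 higher in 18-81 (limma, adjusted p under 0.05), again beside 16.2 and 15.6% of all genes, and a median of -0.23. The Ets factor Spib was at 4.29 ± 0.24, Irf8 at 2.30 ± 0.18, Pax5 at 0.79 ± 0.25 and Foxo1 at 0.76 ± 0.18. Lower were the repressor Bcl6 at -3.26 ± 0.47, Lef1 at -1.56 ± 0.30, Sox4 at -1.51 ± 0.22 and Runx1 at -1.21 ± 0.27. Ebf1 and Tcf3 (E2A), whose products bind the palindrome and the E-box shown above, were at -0.39 ± 0.22 and 0.21 ± 0.25 (limma, adjusted p = 0.238 and 0.575). Both were named for these motifs and not for the size of their difference. Their intervals in the limma fit, -0.9 to 0.13 for Ebf1 and -0.37 to 0.8 for Tcf3, allow differences of some size. The arrays measure RNA and not the activity of these factors, so their part in the lower surrogate light chain values was not tested. After miR-125b, 0 genes of the 3 lists passed in either line (limma), and those with the smallest p were Sos1 (at least 1.62-fold higher, with neither miR-Neg array above background), Irf4 (-1.06 ± 0.31) and Lyn (-0.92 ± 0.33) in 70Z/3, with limma adjusted p of 0.757 to 0.773 and unadjusted p of 0.00617 to 0.0234. In 18-81 they were Fyn (-1.13 ± 0.60), Cd5 (0.48 ± 0.44) and Pik3r1 (-0.26 ± 0.29), all at a limma adjusted p of 1. At an unadjusted p under 0.05 there were 3 genes of the positive list and 1 transcription factor in 70Z/3, and 0 genes of the lists in 18-81. Over all genes, 5.88% in 70Z/3 and 1.21% in 18-81 were under it (limma).

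**Figure D4:**
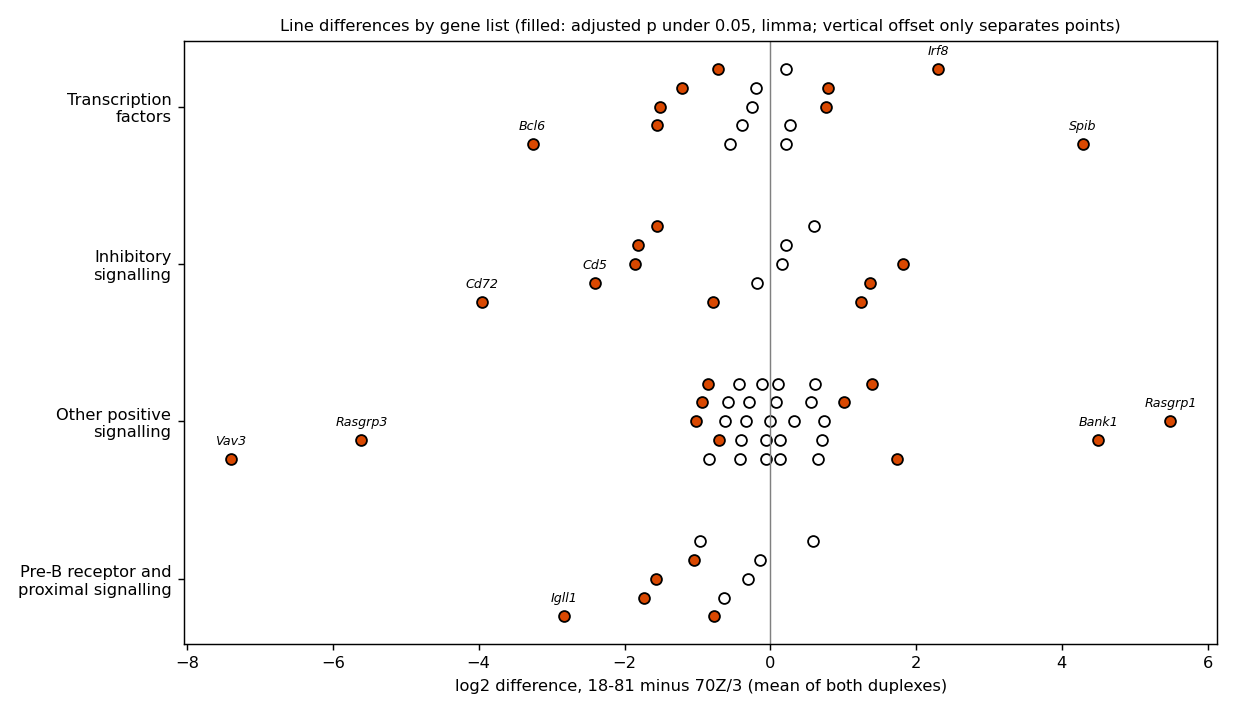
Log2 difference of 18-81 minus 70Z/3, averaged over both duplexes (horizontal axis), for the members and 3 lists of related genes; each point is a gene and filled points passed an adjusted p under 0.05 (limma). The called members all lie below 0, while each of the other lists has called genes on both sides; Vav3, Rasgrp1 and Rasgrp3 are at their measured values although 0 or 1 array of the dimmer line was above background for them.

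The genes whose pattern over the 8 arrays was most like the mean of Igll1, Vpreb1 and Vpreb2 were Pcyox1 (Pearson r = 0.996), Rab29 (0.994), Tk1 (0.994), Zfp758 (0.993) and Pigyl (0.993). The arrays fall into 2 lines, so these values describe the line difference and the high replicate 2 of 70Z/3 with miR-Neg, and carry no test. Among the other members, Cd79b (r = 0.908) and Blnk (0.896) came closest to that mean, Blk (0.681), Btk (0.508), Syk (0.369) and Vpreb3 (0.333) were less alike, and Cd79a ran the other way (-0.514).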

How the data were processed

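Total RNA (0.2 µg, integrity number 9) was labelled with Cy3 and hybridised to 1 mouse 8x60K slide, per the labels' protocols and the file headers. The deposited scanner files give background-subtracted, spatially detrended intensity values from Agilent Feature Extraction 10.7.3.1, per the file headers, with probe positions in mm9. The deposited series table, used as an alternative, holds linear intensity values normalized by the authors by a method not given in the sources used here. Control and outlier spots were left out, spots averaged, and the array's 75th percentile over 59305 spots subtracted on the log2 scale. Genes entered the test through their brightest probe that exceeded background clearly on the 2 arrays of any group. Names came from the files and RefSeq (GRCm38.p6): 26413 probes by accession, 3859 by symbol, 735 by an older symbol, and 24674 kept the file's name. limma 3.58.1 (R 4.3.3) fitted 4 group means with empirical Bayes moderation and Benjamini-Hochberg adjustment over 18778 genes. Scripts were tested on simulated data. The number of arrays limits the precision. Same-numbered samples deviated together (r 0.374 to 0.648 over 6 pairs of groups), and the design names 2 independent experiments, so the numbers pair the samples; the fit reported has no block, and blocked values are given where they change a call. Alternatives were normalization, background, filter, probe rule, trend, block, separate lines, single duplexes and each array left out. The members and lists were chosen with earlier results of these data known. Named genes were all members, up to 5 per direction and list with the largest line difference among called genes whose lines do not overlap, the 3 smallest p-values per duplex comparison and the 5 genes most alike. A few list and marker genes are left unreported, though the counts still hold them.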

Additional observations from a re-analysis of the deposited data

Results flagged for a closer look

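5 members' replicate pairs moved in opposite directions with miR-125b in the 2 lines, both pairs of one line against both pairs of the other, as did 24.6% of all genes. The difference of the effects, 18-81 minus 70Z/3, was 0.76 ± 0.55 for Vpreb1, 0.74 ± 0.65 for Vpreb2, 0.29 ± 0.53 for Vpreb3, -0.50 ± 1.08 for Cd79a and 0.53 ± 0.48 for Cd79b. The interaction test gave adjusted p from 0.941 to 0.948 for these members (limma), so none passed. Vpreb1, Vpreb2, Vpreb3 and Cd79b were lower in 70Z/3 and higher in 18-81 in both pairs, and Cd79a was the other way round, with pair values as small as -0.01 for Vpreb3 and 0.01 for Vpreb1 and Cd79b. Without the dim replicate 2 of 70Z/3 with miR-Neg the differences were 0.23 for Vpreb1, 0.11 for Vpreb2, 0.18 for Vpreb3, 0.26 for Cd79a and 0.43 for Cd79b. These values set replicate 1 of miR-Neg against both miR-125b replicates in 70Z/3, so the difference between experiments enters them. For Cd79a, pair 1, which does not hold that array, gave 0.12 in 70Z/3 and -0.13 in 18-81.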

How the results depend on the processing

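The line differences of Igll1 and Vpreb1 kept their direction and their call under every alternative run, with limma adjusted p up to 0.00452 and 0.0439. The 5 members called became 3 (Igll1, Vpreb1, Vpreb2) after quantile normalization and 3 in the authors' deposited series table, 2 under miR-125b alone, 4 to 6 without single arrays, 6 with a replicate block and 7 with the block set separately in the lines; the pairing changed no other call. Counts over all genes moved from 5963 to 9026 with a replicate block, 9294 with a replicate block and quantile normalization (chosen after seeing the data), 3513 with a filter on all arrays and 3975 under miR-125b alone. In 70Z/3, miR-125b against miR-Neg called 1 gene with normexp background, 1 with a block within each line and 2 without miR-Neg replicate 2, no member among them. Without single arrays up to 9 genes passed in 18-81 and up to 5 for the difference of the effects, again no member. Where signs turned, no value passed the test and the cause was not tested. Leaving out 1 array sets the other replicate of its group against both replicates of the compared group. The difference between experiments then enters that value. For Cd79a in 18-81 the replicate pairs were at -0.13 and -0.11. Line differences of Vpreb3 became 0.02 in the deposited table and 0.00 under miR-125b alone (-0.31 to 0.03 without single arrays). In 70Z/3, Btk became 0.15 after quantile normalization, with or without a replicate block, 0.11 with the percentile over probes detected on all arrays, 0.16 in the deposited table and 0.13 as the mean of its probes, and Vpreb3 became 0.15, again with or without the block, and 0.24 in the deposited table. In 18-81, Cd79b became -0.01 in the deposited table and Vpreb1 -0.01 after quantile normalization, with or without the block. For the difference of the effects, Vpreb3 became -0.07 after quantile normalization, with or without the block, and -0.14 in the deposited table. Without single arrays, where a lone array is assumed to vary like the other groups, the 70Z/3 values ranged from -0.07 to 0.20 (Blnk), -0.28 to 0.14 (Btk), -0.38 to 1.14 (Cd79a), -0.87 to 0.18 (Syk), -1.25 to 0.01 (Vpreb2) and -0.48 to 0.10 (Vpreb3). The 18-81 values ranged from -0.09 to 0.31 (Blnk), -0.34 to 0.25 (Btk), -0.90 to 0.66 (Cd79a), -0.30 to 0.37 (Cd79b), -0.09 to 0.18 (Vpreb1), -0.21 to 0.45 (Vpreb2) and -0.24 to 0.45 (Vpreb3). The differences of effects ranged from -1.28 to 0.28 (Cd79a), -2.86 to 0.23 (Syk) and -0.05 to 0.63 (Vpreb3). Members were well above background on every array.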
